A study of Homo sapiens with 12 samples.

Results

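G1 cyclins and CDK inhibitors were followed across 12 arrays of MCF10A, an immortalised human line from breast epithelium that does not form tumours. The 10 genes are CCND1, CCND2, CCND3, CCNE1, CCNE2, CCNA1, CDKN1A, CDKN1B, CDKN1C and CDKN2B, out of 18417 genes tested. They were chosen by symbol in the array's probe annotation, and each gene was read by 1 probe set. All cells carried a stably transfected HER2 receptor chimera fused to FKBP and HA, in the untreated group too. The labels do not say whether the line is 1 clone or a pool.

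The 4 groups hold 3 arrays each. AP1510 cells received a synthetic bivalent FKBP ligand that joins tagged receptors into HER2 homodimers. TGF-alpha cells received this EGFR ligand, heregulin cells received the ligand of HER3 and HER4, and untreated cells received none. RNA was taken 48 hours after ligand, and the labels give neither the doses nor when untreated cells were harvested. All groups, untreated included, were maintained in medium with 5% horse serum and 20 ng/ml EGF, itself an EGFR ligand. Before ligand, every group spent 24 hours in medium with no serum or EGF. Insulin (10 microgram/ml), hydrocortisone (500 ng/ml) and cholera toxin (100 ng/ml) were still present. Each group came from triplicate dishes, and the p-values cover only dish-to-dish spread, which may be technical.

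Cells pass from G1 into S phase when cyclin-dependent kinases (CDKs) inactivate the retinoblastoma protein RB and free E2F transcription factors. D cyclins activate CDK4 and CDK6 and are the link to growth factor signals, while E cyclins and then A cyclins activate CDK2. The CIP/KIP proteins p21, p27 and p57, from CDKN1A, CDKN1B and CDKN1C, bind cyclin and CDK complexes, and INK4 proteins such as p15, from CDKN2B, bind CDK4 and CDK6. Much of this control acts on protein stability and binding, which RNA arrays do not read.

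All levels below are the deposited log2 intensities, where a difference of 1 is a doubling. Levels of different probe sets cannot be set against each other. Errors beside changes are standard errors from 1 limma model over all 12 arrays, and a gene is said to pass at an adjusted p under 0.05. Pairs of arrays within a group had correlations of 0.99 to 0.996 across genes, and pairs from different groups 0.972 to 0.995. On the first principal component (48.6% of the variance) AP1510 replicate 1 stood apart at -2.43, against -12 and -14 in the other AP1510 arrays and -20.3 to -18.7 in untreated arrays. Among epithelial markers KRT5 lay at 11.4 to 12.6, ITGB4 at 9.69 to 10.7 and KRT14 at 7.29 to 8.02 on all arrays. Of the leukocyte markers PTPRC lay at 2.83 to 3.12 and CD68 at 6.99 to 8.17. The endothelial and fibroblast markers PECAM1 and DCN lay at 8.1 to 8.72 and 6.26 to 8.96. Being from different probe sets, these levels do not rank cell types. Against untreated, 1 of 4 leukocyte markers passed, CD68, lower with TGF-alpha (-0.80). Of 7 endothelial and fibroblast markers 3 passed: DCN was higher with heregulin (1.59) and lower with TGF-alpha (-0.80), CDH5 was lower with both ligands and PECAM1 was lower with heregulin. The log2 of their summed intensity was 9.56 to 9.64 with AP1510, 9.42 to 9.47 with TGF-alpha, 9.86 to 10.02 with heregulin and 9.53 to 9.59 in untreated cells, and RMA lists no value at 0. Of 7 basal epithelial markers 2 were higher with AP1510, 5 higher and 1 lower with TGF-alpha and 3 higher with heregulin. Of 8 luminal markers 1 was lower with AP1510, 2 were higher and 4 lower with TGF-alpha and 1 was lower with heregulin. Beside these marker counts, 1.47% of all genes passed with AP1510 (0.771% higher and 0.7% lower). With TGF-alpha 26% of all genes passed (12.5% higher and 13.4% lower), and with heregulin 8.5% (3.45% higher and 5.06% lower). The part of these marker shifts in the results below was not tested.

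Of the 10 genes, 6 differed among the 4 groups by the moderated F test, against 28.5% of all genes: CCND1, CCND3, CCNE2, CCNA1, CDKN1A and CDKN1B. CCND2, CCNE1, CDKN1C and CDKN2B did not pass it. The call of CCND3 was at the edge (adjusted p = 0.048) and ended in 9 of 12 leave-one-array-out refits, holding when AP1510 replicate 1, TGF-alpha replicate 1 or untreated replicate 2 was left out, while the other 5 calls held in all 12. The levels by array show CCNA1 and CCND1 as the genes whose group means lay farthest apart, by 2.66 and 1.20 log2 units. In these bulk samples, fewer cells of a type or cycle phase and less RNA per cell cannot be told apart.

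**Figure D1:**
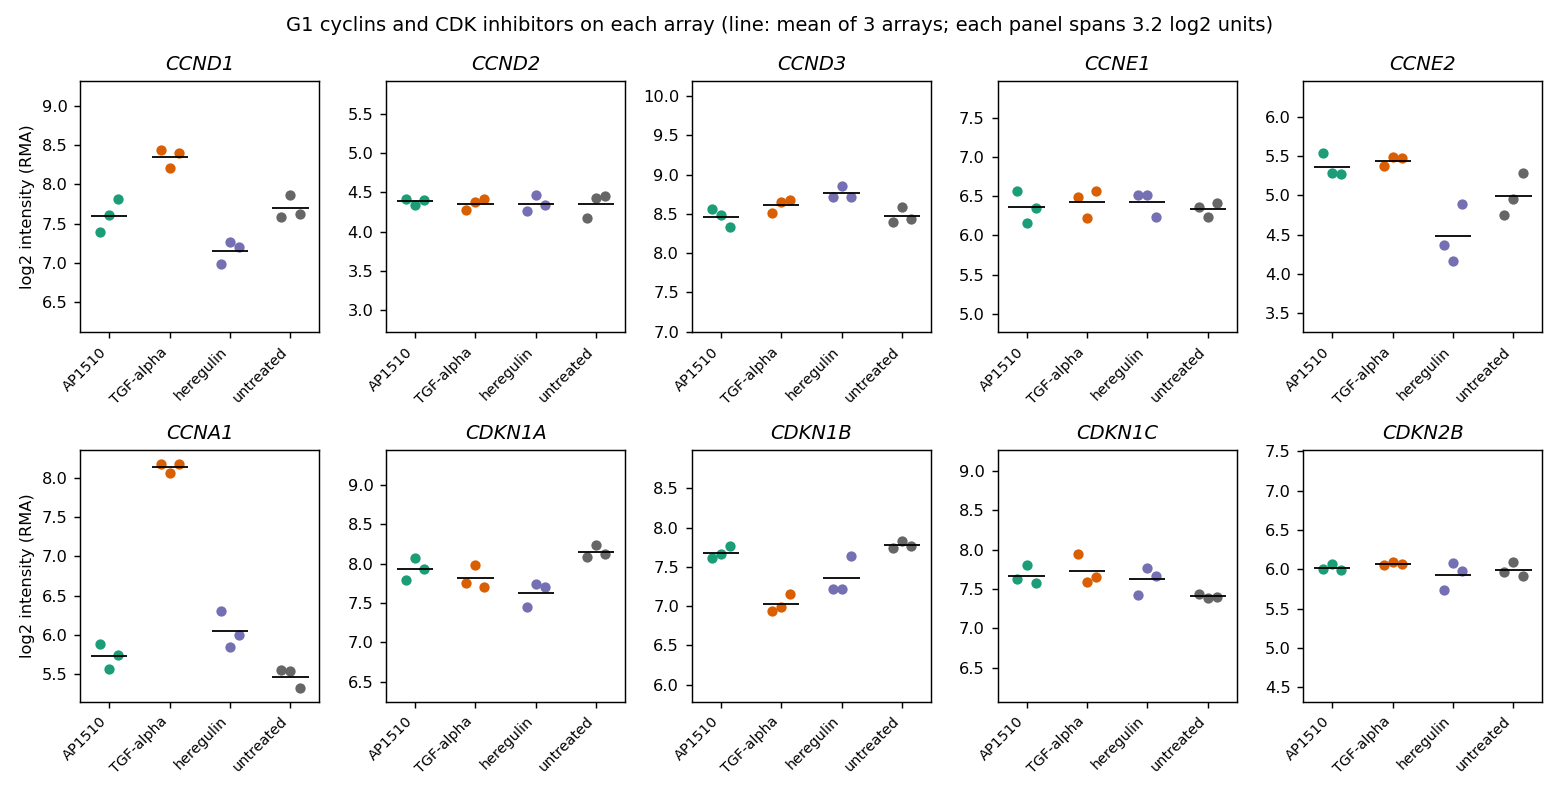
Log2 intensity of each gene on each of the 12 arrays, by treatment, with the mean of 3 arrays as a line; every panel spans the same number of log2 units. CCNA1 lies at 8.06 to 8.18 with TGF-alpha and at or below 6.31 on every other array, and CCND1 is highest with TGF-alpha and lowest with heregulin.

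CCND1, which encodes cyclin D1 (probe set 7942123), moved in opposite directions under the 2 natural ligands. Its level was 7.39, 7.61 and 7.81 in AP1510 cells, 8.44, 8.21 and 8.40 in TGF-alpha cells, 6.99, 7.27 and 7.20 in heregulin cells, and 7.59, 7.87 and 7.62 in untreated cells. All TGF-alpha arrays lay above, and all heregulin arrays below, every untreated and every AP1510 array. TGF-alpha raised CCND1 1.58-fold (0.66 ± 0.12, adjusted p = 0.00051), heregulin lowered it 1.45-fold (-0.54 ± 0.12, adjusted p = 0.0086), and these calls held without any single array. With AP1510 the change was -0.09 ± 0.12 (95% interval -0.34 to 0.16, adjusted p = 0.88). The order of the groups was TGF-alpha, untreated, AP1510 and heregulin, of which untreated and AP1510 were not told apart.

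CCND3, for cyclin D3 (probe set 8126371), was highest in heregulin cells, but no pair of groups passed. It lay at 8.56, 8.48 and 8.33 in AP1510 cells, 8.51, 8.65 and 8.68 in TGF-alpha cells, 8.72, 8.85 and 8.72 in heregulin cells, and 8.39, 8.59 and 8.43 in untreated cells. All heregulin arrays lay above all others. The change with heregulin against untreated was 0.30 ± 0.09 (adjusted p = 0.061), and it passed without untreated replicate 2 (adjusted p = 0.046). The order was heregulin, TGF-alpha, untreated and AP1510, with no neighbours told apart. In heregulin cells CCND3 had its highest group mean and CCND1, whose protein binds the same kinases, its lowest.

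CCND2, for cyclin D2 (probe set 7953200), lay at 4.17 to 4.46 on all 12 arrays, and its groups overlapped in every comparison. Its changes had 95% intervals of -0.17 to 0.23 with AP1510, -0.20 to 0.20 with TGF-alpha and -0.19 to 0.20 with heregulin. The array medians over all probe sets were 5.33 to 5.44, and the deposited table has no detection call, so whether CCND2 was above background cannot be read from it.

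Of the E cyclins, partners of CDK2 at the start of S phase, CCNE2 passed between treatments and CCNE1 passed in no comparison. CCNE2, for cyclin E2 (probe set 8151871), lay at 5.54, 5.29 and 5.27 in AP1510 cells, 5.37, 5.49 and 5.47 in TGF-alpha cells, 4.37, 4.17 and 4.89 in heregulin cells, and 4.75, 4.95 and 5.29 in untreated cells. Heregulin arrays lay below all AP1510 and TGF-alpha arrays and overlapped the untreated ones. None of its changes against untreated passed: 0.37 ± 0.16 with AP1510 (adjusted p = 0.39), 0.44 ± 0.16 with TGF-alpha (adjusted p = 0.053) and -0.52 ± 0.16 with heregulin (adjusted p = 0.058). Between treatments the heregulin level was 1.85-fold lower than that of AP1510 (-0.89 ± 0.16, adjusted p = 0.0023) and 1.95-fold lower than that of TGF-alpha (-0.97 ± 0.16, adjusted p = 0.00029). All heregulin and untreated arrays and AP1510 replicates 2 and 3 lay below the array medians of 5.33 to 5.44, and the others lay at 5.37 to 5.54. With no detection call, the distance of CCNE2 from background is not known in any group. The TGF-alpha change passed when untreated replicate 3, heregulin replicate 2 or heregulin replicate 3 was left out (lowest adjusted p = 0.016), and the heregulin change without untreated replicate 1 or heregulin replicate 3 (lowest adjusted p = 0.0043). The order was TGF-alpha, AP1510, untreated and heregulin, with no neighbours told apart.

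CCNE1, for cyclin E1 (probe set 8027402), lay at 6.16 to 6.57 over all 12 arrays, with groups that overlapped in all 6 comparisons. Its group means were 6.36 ± 0.21 in AP1510 cells, 6.42 ± 0.18 in TGF-alpha cells, 6.42 ± 0.15 in heregulin cells and 6.33 ± 0.094 in untreated cells (SD, n = 3 each). The 95% intervals of its changes against untreated were -0.23 to 0.28 with AP1510 and -0.17 to 0.35 with either ligand.

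CCNA1, for cyclin A1 (probe set 7968637), had the largest change of the 10 genes. Cyclin A1 partners CDK2 and is best known from the male germ line, unlike its widely expressed relative cyclin A2. CCNA1 lay at 5.88, 5.57 and 5.74 in AP1510 cells, 8.17, 8.06 and 8.18 in TGF-alpha cells, 6.31, 5.84 and 6.0 in heregulin cells, and 5.55, 5.54 and 5.32 in untreated cells. The TGF-alpha arrays stood far above all others, and each treatment's arrays lay above all untreated arrays. The rise of CCNA1 was 6.34-fold with TGF-alpha (2.66 ± 0.12, adjusted p = 4.3e-10), heregulin raised it 1.49-fold (0.58 ± 0.12, adjusted p = 0.005), while 0.26 ± 0.12 with AP1510 did not pass (adjusted p = 0.43). In direct comparison the TGF-alpha level was 5.30-fold that of AP1510 (adjusted p = 1.8e-09) and the heregulin level 4.25-fold lower than that of TGF-alpha (adjusted p = 3.8e-09). The order was TGF-alpha, heregulin, AP1510 and untreated. Heregulin and AP1510, and AP1510 and untreated, were not told apart.

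The inhibitor genes CDKN1A and CDKN1B fell together under both natural ligands. CDKN1A, for p21 (probe set 8119088), a target of p53, lay at 7.79, 8.07 and 7.93 in AP1510 cells, 7.75, 7.98 and 7.71 in TGF-alpha cells, 7.45, 7.74 and 7.70 in heregulin cells, and 8.09, 8.24 and 8.12 in untreated cells. The treated arrays all lay below the untreated arrays. With TGF-alpha CDKN1A fell 1.26-fold (-0.34 ± 0.11, adjusted p = 0.028), heregulin lowered it 1.43-fold (-0.52 ± 0.11, adjusted p = 0.0054), and its change with AP1510 was -0.22 ± 0.11 (adjusted p = 0.47). The TGF-alpha call ended when replicate 1 or 3 of TGF-alpha, or 2 or 3 of untreated, was left out (highest adjusted p = 0.12). The order was untreated, AP1510, TGF-alpha and heregulin, in which no neighbours were told apart.

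CDKN1B, for p27 (probe set 7954029), whose gene is a known FOXO target, lay at 7.61, 7.67 and 7.77 in AP1510 cells, 6.94, 6.99 and 7.16 in TGF-alpha cells, 7.22, 7.22 and 7.64 in heregulin cells, and 7.74, 7.83 and 7.76 in untreated cells. TGF-alpha arrays lay below every other array, and heregulin replicate 3 stood nearer the untreated arrays than the other heregulin arrays did. TGF-alpha lowered CDKN1B 1.68-fold (-0.75 ± 0.11, adjusted p = 7.4e-05), heregulin lowered it 1.33-fold (-0.41 ± 0.11, adjusted p = 0.028), while AP1510 gave -0.09 ± 0.11 (95% interval -0.33 to 0.14, adjusted p = 0.85). The heregulin call ended without any 1 of the untreated arrays or without heregulin replicate 1 or 2 (highest adjusted p = 0.1), with array weights (-0.19, adjusted p = 0.19) and with only its groups in the fit (adjusted p = 0.08), and the TGF-alpha call held without any single array. Heregulin cells had 1.26-fold more CDKN1B signal than TGF-alpha cells (0.33 ± 0.11, adjusted p = 0.041), a call that ended in 6 of the 12 refits, those without replicate 3 of heregulin, 1 or 2 of TGF-alpha, 2 of AP1510, or 1 or 3 of untreated (changes of 0.19 to 0.40 over all refits, highest adjusted p = 0.22). The order was untreated, AP1510, heregulin and TGF-alpha, with untreated and AP1510, and AP1510 and heregulin, not told apart.

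The stretches upstream of CDKN1A and CDKN1B are shown because both genes fell with TGF-alpha and heregulin, and that of CCNA1 because it changed most. Each is the 250 bases before an annotated start, 5′ to 3′, from RefSeq (GRCh38.p14), at chr6:36678464-36678713 on the plus strand, chr12:12717118-12717367 on the plus strand and chr13:36431705-36431954 on the plus strand. Capitals mark GC boxes (GGGCGG, bound by Sp1 family factors) and CCAAT boxes (CCAAT, bound by NF-Y), on either strand.
CDKN1A: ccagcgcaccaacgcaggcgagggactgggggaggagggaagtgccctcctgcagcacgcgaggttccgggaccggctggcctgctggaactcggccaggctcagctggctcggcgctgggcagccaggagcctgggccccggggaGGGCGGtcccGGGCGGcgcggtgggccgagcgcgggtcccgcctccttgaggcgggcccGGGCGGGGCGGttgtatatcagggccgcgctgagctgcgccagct
CDKN1B: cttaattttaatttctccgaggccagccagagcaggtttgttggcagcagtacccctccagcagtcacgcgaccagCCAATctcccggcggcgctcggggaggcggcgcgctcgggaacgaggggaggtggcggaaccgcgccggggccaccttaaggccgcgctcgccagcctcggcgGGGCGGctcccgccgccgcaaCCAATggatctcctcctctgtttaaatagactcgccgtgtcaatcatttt
CCNA1: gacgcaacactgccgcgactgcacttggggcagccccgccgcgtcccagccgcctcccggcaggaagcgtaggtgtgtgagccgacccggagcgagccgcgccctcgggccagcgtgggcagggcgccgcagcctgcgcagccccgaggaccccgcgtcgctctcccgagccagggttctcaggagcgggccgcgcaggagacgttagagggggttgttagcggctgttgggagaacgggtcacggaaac

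CDKN1A held 4 GC boxes, 2 of which overlap by 1 base, and no CCAAT box. CDKN1B held 1 GC box and 2 CCAAT boxes, and CCNA1 held neither. Of 35116 upstream stretches of this length 42.6% held a GC box and 32.0% a CCAAT box. No GC box overlaps a CCAAT box in the stretches shown. A further 7 spellings were searched on both strands: TTTCCCGC and TTTGGCGC (E2F, in 1.39% and 0.55% of stretches), TGACGTCA and TAACGTCA (CRE, 1.65% and 0.305%), TTTGAA (CHR, 13.3%), GTAAACA (FOXO, 2.98%) and TGAGTCA (AP-1, 4.2%). In the 8 stretches held for 6 of the 10 genes they had 0 matches, which says only that these letters are not in these windows.

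CDKN1C, for p57 (probe set 7945767), an imprinted gene, lay at 7.63, 7.81 and 7.57 in AP1510 cells, 7.94, 7.59 and 7.65 in TGF-alpha cells, 7.42, 7.77 and 7.67 in heregulin cells, and 7.44, 7.39 and 7.40 in untreated cells. AP1510 and TGF-alpha arrays lay above the untreated arrays, and heregulin replicate 1 overlapped them. CDKN1C was the inhibitor gene that rose: 1.25-fold with TGF-alpha (0.32 ± 0.11, adjusted p = 0.045). That call ended in 7 of the 12 refits, without replicate 1 or 3 of TGF-alpha, 3 of heregulin, 1 of AP1510 or any untreated array (highest adjusted p = 0.22), and after a second quantile normalization (adjusted p = 0.083). The changes with AP1510, 0.26 ± 0.11 (adjusted p = 0.36), and heregulin, 0.21 ± 0.11 (adjusted p = 0.31), did not pass. The order was TGF-alpha, AP1510, heregulin and untreated, with no neighbours told apart.

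CDKN2B, for p15 (probe set 8160452), an INK4 gene known to respond to TGF-beta, lay at 5.74 to 6.09 on all 12 arrays and its groups overlapped in each comparison with untreated. Its changes were 0.03 with AP1510 (95% interval -0.17 to 0.23), 0.09 with TGF-alpha (-0.11 to 0.28) and -0.06 with heregulin (-0.26 to 0.14). MCF10A cells are known to have lost the CDKN2A locus, which neighbours CDKN2B. The labels do not say whether CDKN2B itself is kept in these cells, so its flat level cannot be read as a missing response. The CDKN2A probe set lay at 4.88 to 5.49 and that of MTAP, next to it, at 3.80 to 4.10. By limma 0 of the 4 neighbours measured passed against untreated under any treatment, and 0 had an unadjusted p under 0.05. Over all genes 1.47% passed with AP1510, 26% with TGF-alpha and 8.5% with heregulin, and 11.1%, 34.4% and 20.3% had an unadjusted p under 0.05. With 4 genes these counts say little. How far the CDKN2B, CDKN2A and MTAP signals are background cannot be read from the deposited values.

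Counted over the 10 genes, AP1510 changed 0 at an adjusted p under 0.05, where 1.47% of all genes passed (0.771% higher and 0.7% lower). With each array left out in turn and under every other processing run, the AP1510 count was again 0, while 3 of the 10 (CCNE2, CCNA1 and CDKN1C) had an unadjusted p under 0.05, against 11.1% of all genes. TGF-alpha changed 5 of 10, 3 higher and 2 lower, against 26% of all genes (12.5% higher and 13.4% lower). Heregulin changed 4 of 10, CCNA1 higher and CCND1, CDKN1A and CDKN1B lower, against 8.5% of all genes (3.45% higher and 5.06% lower). Arrays of the treated and untreated groups did not overlap for 3 genes with AP1510, 6 with TGF-alpha and 5 with heregulin, where 17.3%, 40.2% and 23.8% of all genes were so separated. The TGF-alpha count was 3 without replicate 1 or 3 of TGF-alpha or 2 of untreated, and 0 of the 4 heregulin changes reached 1.5-fold. The median change of the 10 genes was 0.03 with AP1510, 0.12 with TGF-alpha and -0.03 with heregulin, beside -0.01, -0.01 and 0.01 over all genes.

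**Figure D2:**
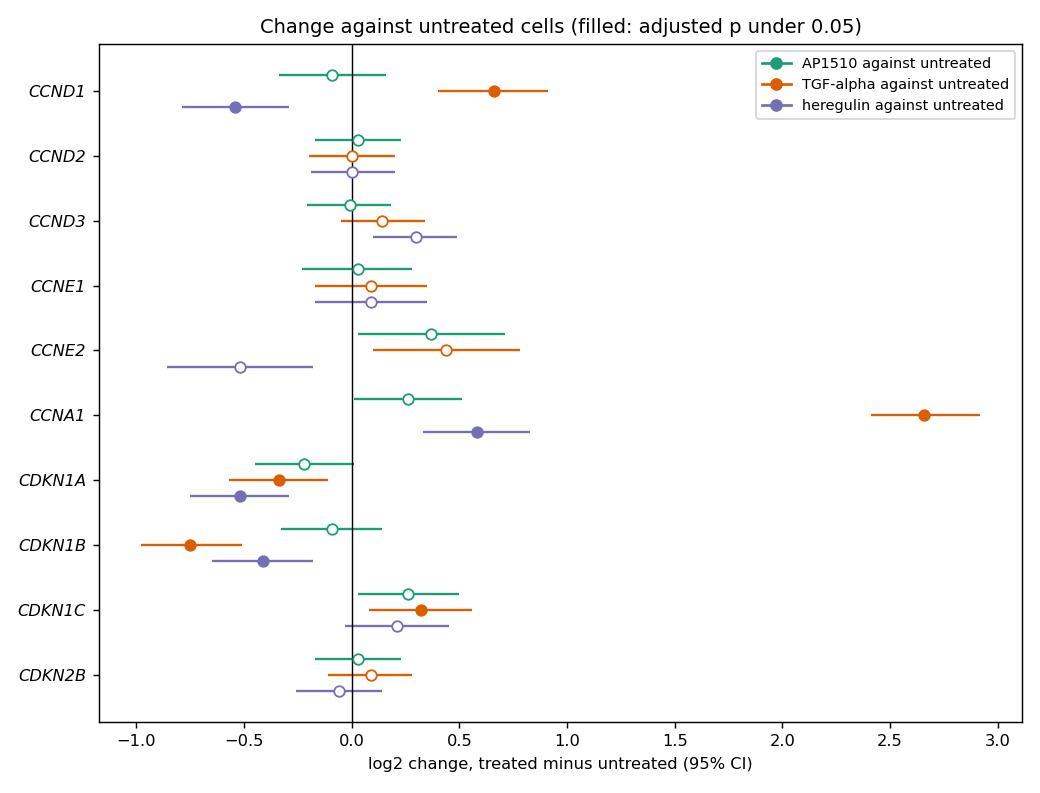
Log2 change of each gene against untreated cells (treated minus untreated, horizontal axis) with its 95% interval, for AP1510, TGF-alpha and heregulin; filled points passed an adjusted p of 0.05. CCND1 lies on opposite sides of 0 under TGF-alpha (0.66) and heregulin (-0.54), and CDKN1A and CDKN1B lie below 0 under both.

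Direct comparisons between treatments use the untreated cells only for the common spread. Against AP1510, TGF-alpha cells had more CCND1 (0.75 ± 0.12, adjusted p = 0.00021) and CCNA1 (2.41 ± 0.12) and less CDKN1B (-0.65 ± 0.11, adjusted p = 0.00036), 2 higher and 1 lower of 10 genes, where 21.6% of all genes passed (11.2% higher and 10.4% lower). Heregulin cells had less CCND1 (-0.45 ± 0.12, adjusted p = 0.031) and less CCNE2 than AP1510 cells, 2 lower of 10 genes, where 7.23% of all passed (3.27% higher and 3.95% lower). The CCND1 call ended without replicate 1 or 3 of heregulin or 2 or 3 of AP1510 (highest adjusted p = 0.15), after a second quantile normalization (adjusted p = 0.053) and with only its groups in the fit (adjusted p = 0.083). CCND3, 0.31 ± 0.09 (adjusted p = 0.056), passed without AP1510 replicate 1 (adjusted p = 0.047), and CDKN1B, -0.32 ± 0.11 (adjusted p = 0.1), passed without heregulin replicate 3 (adjusted p = 0.012). Heregulin and TGF-alpha cells differed in 4 of 10 genes, 1 higher and 3 lower with heregulin, where 21.6% of all passed (9.88% higher and 11.8% lower). CCND1 (2.29-fold, -1.20 ± 0.12, adjusted p = 1.6e-06), CCNE2 and CCNA1 were lower in heregulin cells, and CDKN1B was higher. CDKN1A did not differ between the ligands beyond the threshold (-0.18, 95% interval -0.41 to 0.05, adjusted p = 0.28). Arrays did not overlap for 3 genes between TGF-alpha and AP1510 (36.4% of all genes), 4 between heregulin and AP1510 (22.7%) and 5 between heregulin and TGF-alpha (34.3%). The contrasts share groups with each other and with those above, so they are not independent.

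**Figure D3:**
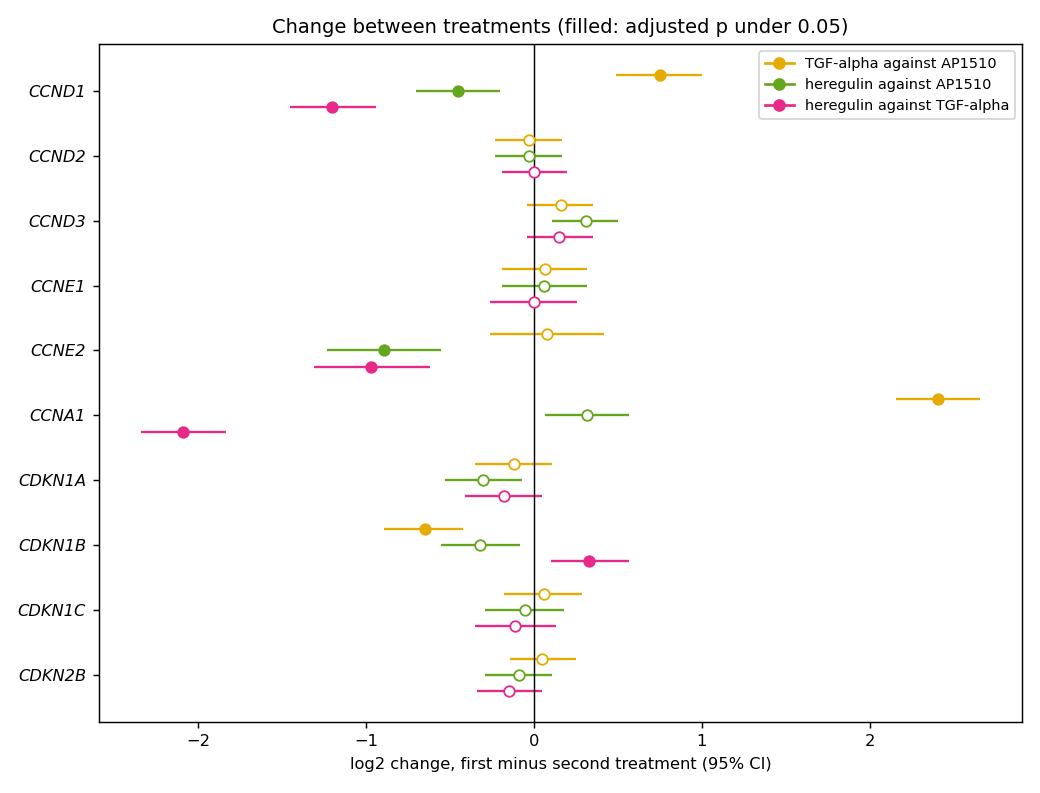
Log2 change of each gene between treatments (first minus second treatment, horizontal axis) with its 95% interval; filled points passed an adjusted p of 0.05. Heregulin lies below TGF-alpha for CCND1 (-1.20), CCNE2 (-0.97) and CCNA1 (-2.09).

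Other genes of G1 and S control passed most often with TGF-alpha, as did all genes, of which 26% passed with TGF-alpha, 1.47% with AP1510 and 8.5% with heregulin. Of 24 measured genes for G1/S kinases, RB family and E2F proteins, 14 rose and 2 fell with TGF-alpha (12.5% and 13.4% of all genes), with a median change of 0.41 beside -0.01 over all genes. CCNA2, for cyclin A2, rose 2.85-fold, RBL1, for the RB relative p107, 2.73-fold, and CDKN3, for a CDK phosphatase, 2.37-fold. The 2 that fell were 0 to 1 in 9 of the 12 refits and 2 without AP1510 replicate 2 or heregulin replicate 1 or 2. With AP1510 3 rose and 0 fell (median 0.11), namely CCNA2 (1.61-fold, adjusted p = 0.0051), CDKN3 (1.51-fold) and the E2F repressor gene E2F7 (1.38-fold), and 1 rose without AP1510 replicate 1 or untreated replicate 2. CDKN3 kept its call with AP1510 only without heregulin replicate 2 or 3. E2F7 lost its call without AP1510 replicate 1 or untreated replicate 2. With heregulin 0 of 24 passed by limma (median 0.02), and 5 had an unadjusted p under 0.05, near the 20.3% of all genes. In refits 1 rose without heregulin replicate 2 and 1 fell without untreated replicate 2. Between treatments, 11 of the 24 were higher in TGF-alpha than in AP1510 cells (median 0.24), where 11.2% of all genes were. In heregulin cells 15 were lower than in TGF-alpha cells (median -0.43), where 11.8% of all genes were. Against AP1510 cells 5 were lower in heregulin cells (median -0.12), where 3.95% of all genes were. That count was 1 without heregulin replicate 2 and 2 without AP1510 replicate 1. It was 3 without heregulin replicate 1, AP1510 replicate 2 or AP1510 replicate 3.

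Among 13 genes for ubiquitin ligases that act on G1 cyclins or p27, 5 rose and 2 fell with TGF-alpha (median 0.14), beside 12.5% and 13.4% of all genes, and by limma 0 passed with AP1510 or heregulin, where 1 and 2 had an unadjusted p under 0.05, below the shares of all genes (11.1% and 20.3%). With AP1510 1 rose without untreated replicate 2 or heregulin replicate 2, and with heregulin 1 fell without heregulin replicate 3. DTL, a CUL4 substrate receptor, rose 2.89-fold, FBXO4, an F-box protein, 1.59-fold and SKP2, the F-box protein that targets p27, 1.42-fold. The 2 that fell were 0 to 1 in 8 of the 12 refits and 2 without replicate 2 of TGF-alpha, 2 of untreated or 1 or 2 of heregulin. CDKN1B RNA had its lowest group mean in TGF-alpha cells. SKP2 acts on p27 protein, which the arrays do not read, and a link between the 2 was not tested. Of 15 other cyclin genes 3 rose and 4 fell with TGF-alpha, beside the same 12.5% and 13.4% of all genes. Those with the largest changes were CCNB2 (2.48-fold) and CCNB1 (2.36-fold), for mitotic B cyclins, and CCNF, for cyclin F (2.08-fold). CCNB1 rose 1.35-fold with AP1510, a call kept only without heregulin replicate 2 or 3, and CCNG2, an unconventional cyclin gene and known FOXO target, fell 1.28-fold with heregulin, a call that ended without replicate 1 or 2 of heregulin or 1 or 3 of untreated.

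**Figure D4:**
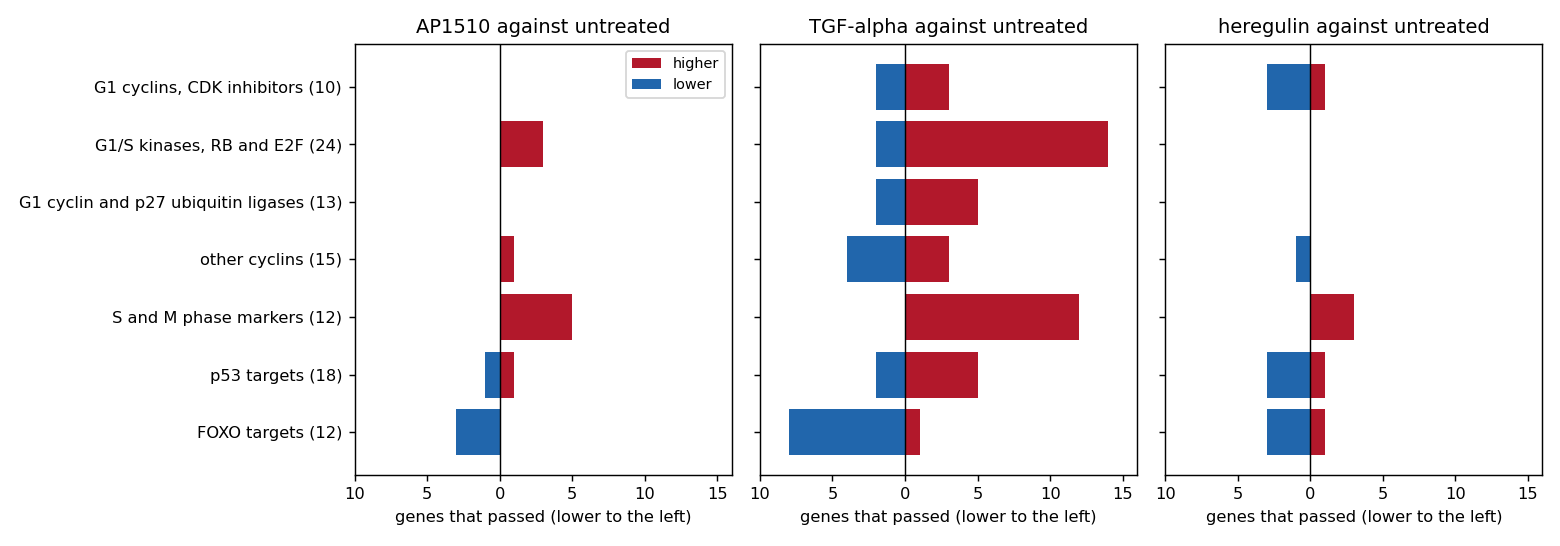
Number of genes that passed against untreated cells in each list, higher to the right and lower to the left, with the number measured in brackets. TGF-alpha raised 14 of 24 G1/S genes and 12 of 12 S and M phase markers (12.5% of all genes). With AP1510 no G1 cyclin or CDK inhibitor gene passed (1.47% of all genes).

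S and M phase markers give the proliferation background of these groups. Over all genes 12.5% rose with TGF-alpha, 0.771% with AP1510 and 3.45% with heregulin. All 12 markers rose with TGF-alpha (median 1.67), TYMS by 5.28-fold, MKI67 by 3.64-fold and BUB1 by 3.57-fold. With AP1510 5 rose (median 0.49), MKI67 by 1.76-fold, BUB1 by 1.70-fold and TOP2A by 1.55-fold, and 2 rose without AP1510 replicate 1, TOP2A not among them. With heregulin 3 rose (median -0.07), MKI67 by 1.42-fold, BUB1 by 1.38-fold and PLK1 by 1.36-fold, and 1 rose without heregulin replicate 3. BUB1 also lost its heregulin call without untreated replicate 1 or heregulin replicate 1. AP1510 cells had 5 of 12 markers higher with 0 of the 10 G1 cyclin and inhibitor genes passed, and heregulin cells had CCND1 lower with 3 of 12 markers higher. The genes of the replicative helicase MCM2 (-0.20, adjusted p = 0.23), MCM5 (-0.29, adjusted p = 0.15) and MCM6 (-0.25, adjusted p = 0.24) and of the replication clamp PCNA (-0.17, adjusted p = 0.36) did not pass with heregulin. Their heregulin arrays all lay below the untreated arrays. Heregulin and untreated arrays did not overlap, in either direction, for 23.8% of all genes. CDC6 (-0.22) and RRM2 (-0.24), also needed for DNA synthesis, did not pass and overlapped. TYMS, needed for it too, had a change of the other sign with heregulin (0.09, adjusted p = 0.82) and also overlapped. Between treatments, 7 of 12 markers were lower in heregulin than in AP1510 cells (3.95% of all genes). All 12 were lower in heregulin than in TGF-alpha cells (11.8% of all genes).

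The p53 targets other than CDKN1A moved in both directions, as genes did over the whole array. Over all genes 12.5% rose and 13.4% fell with TGF-alpha, 3.45% and 5.06% with heregulin, and 0.771% and 0.7% with AP1510. Of 18 p53 targets measured, 5 rose and 2 fell with TGF-alpha (median 0.10). Among them were TP53INP1 (3.07-fold lower), the death receptor gene FAS (1.74-fold higher) and the kinase gene PLK3 (1.53-fold lower). With heregulin 1 rose and 3 fell (median -0.04), with TP53I3 1.89-fold higher and the cytokine gene GDF15 1.82-fold and TP53INP1 1.62-fold lower. With AP1510 TP53I3 rose 1.35-fold, a call that ended without AP1510 replicate 1 or any untreated array, and GDF15 fell 1.87-fold, while 2 fell without AP1510 replicate 3. FOXO targets, the class to which CDKN1B is known to belong, fell more often than they rose with TGF-alpha, 8 against 1 of 12 (median -0.70). The ubiquitin ligase gene FBXO32 fell 5.16-fold, PDK4, an inhibitor of pyruvate oxidation, 2.95-fold and BCL2L11, for the pro-apoptotic BIM, 2.94-fold, and the 1 that rose was 0 without TGF-alpha replicate 1 or 3. With heregulin 1 rose, the repressor gene BCL6 (1.57-fold), and 3 fell (median -0.17), among them the PI3K regulator gene PIK3IP1 (1.56-fold) and TXNIP (1.42-fold). With AP1510 0 rose and 3 fell (median -0.30), PDK4 (1.79-fold), TXNIP (1.57-fold) and PIK3IP1 (1.48-fold), and 5 fell without AP1510 replicate 3. PIK3IP1 lost its AP1510 call without replicate 1 or 2 of AP1510 or 1 or 2 of untreated (highest adjusted p = 0.12). Between the natural ligands, 6 of the 12 FOXO targets were higher and 0 lower in heregulin than in TGF-alpha cells (median 0.51). Over all genes 9.88% were higher and 11.8% lower, and CDKN1B was higher.

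For the 6 genes that differed among the groups, the 3 genes with the most similar levels over the 12 arrays were found by Pearson correlation. The arrays fall into treatment groups, so these values describe shared patterns over groups and carry no p. CCNA1 was closest to SSRP1 (0.997), LGALSL (0.992) and BCL2L1 (0.992). CCND1 was closest to GSS (0.967), SLIT2 (0.963) and SPRED1 (0.961), and CCND3 to CEBPD (0.963), KLF9 (0.925) and DPEP2 (0.923). CCNE2 was closest to KDELR3 (0.943), THBS1 (0.935) and E2F5 (0.916), of which E2F5 is also on the G1/S list. CDKN1A was closest to FGF2 (0.964), ARF3 (0.961) and MRPL53 (0.95), and CDKN1B to CLDN7 (0.964), TSPAN31 (0.962) and EXOC7 (0.961). No gene appeared in 2 of these lists.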

How the data were processed

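Biotin-labelled RNA of 12 dishes was hybridised to Affymetrix arrays, per the labels. The deposited values are log2 intensities made by the authors with RMA, per the submitters' processing notes, in which no version is given. They ran from 1.75 to 14.2, and no further scaling was applied. RMA equalises array distributions, so changes are relative to each array as a whole. The number of arrays limits the precision.

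Of 33297 probe sets, 19460 named 1 gene in the platform annotation, 12083 were listed with none and 1754 with several. Symbols were brought up to date through Entrez IDs, of which 19429 matched RefSeq. A gene was read by its probe set with the highest mean over 12 arrays, giving 18417 genes. The test was limma 3.58.1 (R 4.3.3), with 1 mean per group, 8 residual and 7.55 prior degrees of freedom, two-sided tests in 6 contrasts and Benjamini-Hochberg adjustment over all genes within each. The procedure was also run on simulated data with independent noise, which cannot show the effect of any dependence between dishes, and no result here rests on that run. Alternatives were a second quantile normalization, genes under a mean of log2 5 left out, limma-trend, a robust prior, only the compared groups in the fit, array weights, other probe set rules, thresholds of 0.01 and 1.5-fold, and each array left out. All 10 members were named. From each other list, up to 3 genes with the largest changes that passed against untreated were named, with CDKN2A and MTAP. PTPRC, ITGB4, KRT5, the other cell markers, PCNA, CDC6, RRM2, the MCM genes and, for heregulin, TYMS were named outside this rule, after their values were seen. CDKN2C, BTG2, FDXR, CDKN2B-AS1, KRT17, TP63 and HLA-DRA had no probe set of their own here. The members and lists were chosen with earlier results of these data known, and GC and CCAAT boxes were added after the other motifs gave no match.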

Additional observations from a re-analysis of the deposited data

Results flagged for a closer look

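CCND1 is listed because its changes under the 2 natural ligands passed in opposite directions, with a direct comparison that passed as well. Its level was 1.58-fold higher with TGF-alpha and 1.45-fold lower with heregulin than in untreated cells, and heregulin minus TGF-alpha was -1.20 on the log2 scale (adjusted p = 1.6e-06). All 3 TGF-alpha arrays and all 3 heregulin arrays lay on their own side of all 3 untreated arrays. The 2 changes share the untreated arrays, while the direct comparison does not use them other than for the common spread.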

How the results depend on the processing

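The AP1510 count of 0 members called was the same in every alternative run, and the count of 6 members that differed among the groups was 5 or 6. The TGF-alpha count of 5 was 3 at an adjusted p of 0.01, 3 with a change of at least 1.5-fold as well, and 3 to 6 with each array left out. The heregulin count of 4 was 0 with at least 1.5-fold. Between heregulin and AP1510 the count of 2 was 1 after a second quantile normalization, 1 with only the groups compared in the fit, 4 with array weights, 1 at an adjusted p of 0.01, 1 with at least 1.5-fold, and 1 to 3 with each array left out. Array weights were 4.62 for heregulin replicate 3 and 0.322 for heregulin replicate 2, and with them CDKN1B lost its heregulin call (-0.19, adjusted p = 0.19). Thresholds act by construction, and the cause of the other shifts was not tested.

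Every change of sign concerned a change that had not passed. With a second quantile normalization the change of CCND3 with AP1510 was 0.01, and those of CCND2 were -0.03 with heregulin and -0.04 for heregulin against TGF-alpha. With array weights CCNE1 gave -0.01 with AP1510, -0.06 with heregulin and -0.05 for heregulin against AP1510, and CCND2 gave -0.01 for heregulin against TGF-alpha. With each array left out, the AP1510 changes ran from -0.19 to 0.02 for CCND1, -0.06 to 0.08 for CCND2, -0.06 to 0.05 for CCND3, -0.08 to 0.13 for CCNE1 and 0.00 to 0.08 for CDKN2B. CCND2 ran from -0.09 to 0.05 with TGF-alpha and with heregulin, and CDKN2B from -0.13 to 0.04 with heregulin. For TGF-alpha against AP1510, CCND2 ran from -0.06 to 0.01, CCNE1 from -0.04 to 0.17 and CDKN1C from -0.05 to 0.13. For heregulin against AP1510, CCND2 ran from -0.08 to 0.02, CCNE1 from -0.04 to 0.17, CDKN1C from -0.13 to 0.05 and CDKN2B from -0.16 to 0.00. For heregulin against TGF-alpha, CCND2 ran from -0.05 to 0.05 and CCNE1 from -0.10 to 0.09.

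The CCNE2 change with TGF-alpha, not called at an adjusted p of 0.053, passed with dim genes left out (0.039), with only its groups in the fit (0.017) and with array weights (0.028). Signal over background is not given, which limits dim probe sets such as those of CCND2 and CCNE2. No paired analysis was possible because the labels give no replicate numbers and those used here follow accession order.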
